A study of Rattus norvegicus with 20 samples.

Results

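Transcript levels of cultured rat cortical microglia given PAM3CSK4 were compared with those of the same kind of culture given LPS. The comparison used all libraries of both groups, 4 of PAM3CSK4 and 4 of LPS, which are 8 of the 20 RNA sequencing libraries of the series. It covered the genes with an FPKM of at least 1 in at least 4 of the 20 libraries, which are 8858 of the 17310 gene symbols in the deposited table. FPKM counts fragments on a gene relative to its transcript length and to all mapped fragments of the library. Every group came from the cortex of male Sprague-Dawley rats, 21 days old, whose myeloid cells were immunopanned with CD11b, an integrin of microglia and other myeloid cells, and grown without serum. After 5 days PAM3CSK4 (1 ng/mL) or LPS (1 ng/mL) was added while 50% of the medium was replaced, and the control cultures are labelled PBS. The remaining libraries received morphine (1 uM) or the yeast preparation zymosan (100 ug/mL). They entered the filter, the fit, the rescaling and the library sets described below, and zymosan levels are quoted or plotted for some genes. How long the agonists acted is not stated in the labels. Nor is it stated whether the libraries of a group are separate cultures or separate animals. The p-values therefore describe the spread among these libraries, part or all of which may be technical.

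LPS is the endotoxin of Gram-negative bacteria, sensed by Toll-like receptor 4 (TLR4) together with MD-2 and CD14. PAM3CSK4 is a synthetic triacylated lipopeptide sensed by TLR2 paired with TLR1. Both receptors use the adaptor MyD88 and reach the transcription factor NF-kB and the MAP kinases, which switch on cytokines such as interleukin-1 beta, tumour necrosis factor and interleukin-6. TLR4 also signals from endosomes through the adaptors TRAM and TRIF to the factor IRF3, an arm best known for inducing interferon beta and the chemokine CCL5. Interferon beta acts on the cell that made it and on its neighbours to raise interferon-stimulated genes.

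The libraries of both groups held microglial transcripts. All 14 microglia and macrophage markers, among them Itgam, Csf1r, Tyrobp and C1qa, passed the filter on low values, and their summed level was 4110 to 5261 FPKM with PAM3CSK4 and 3977 to 5464 FPKM with LPS. The 7 astrocyte markers summed to at most 2.97 FPKM in the 8 libraries, with Gfap, Aqp4 and Sox9 listed at 0. The 9 neuronal markers summed to 9.51 to 24.9 FPKM with PAM3CSK4 and 9.79 to 20.6 with LPS, of which 6 were at 0, Rbfox3 among them, while Tubb3 made up most of the sum and Snap25 had an unadjusted p under 0.05 with PAM3CSK4 higher. Endothelial markers summed to 11.3 to 23.8 and 8.64 to 20.8 FPKM, with Cldn5 and Kdr at 0, and oligodendrocyte markers to 2.6 to 11.7 and 3.63 to 9.67, with Mog, Mag and Sox10 at 0. The part of these transcripts in the results was not tested. The table holds no counts, so depth is unknown. The libraries formed 2 sets by the sign of the leading component of the variation left once group means were taken out (63.2% of it). LPS 1, LPS 2 and PAM3CSK4 1 belonged to the smaller set, while LPS 3, LPS 4 and the other 3 PAM3CSK4 libraries belonged to the larger. Tested genes had a median of 5.64 to 6.28 FPKM in those 3 libraries and of 8.12 FPKM or more in the other 5. LPS thus had 1 library more in the smaller set, and values with a term for the sets are given beside the results they bear on most. That term removes part of the spread it was taken from, which can make its p-values too small. In bulk RNA fewer cells of a kind and less RNA per cell cannot be told apart.

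Very few genes differed between PAM3CSK4 and LPS beyond the spread of the libraries. Of 8858 genes 3 passed an adjusted p of 0.05 (limma on log2(FPKM + 1), two-sided, Benjamini-Hochberg), which is 0.0339%. Il10 was higher with PAM3CSK4, and Ccl5 and Calm3 were higher with LPS. In the same fit 2496 genes (28.2%) differed between PAM3CSK4 and PBS and 2866 (32.4%) between LPS and PBS, and these comparisons share the PBS libraries, so their values are only set side by side. Without adjustment 343 genes reached a p under 0.05 for PAM3CSK4 against LPS, 235 higher with PAM3CSK4 (2.65%) and 108 higher with LPS (1.22%). Every PAM3CSK4 library lay above every LPS library for 132 genes (1.49%), and every LPS library above every PAM3CSK4 library for 47 (0.531%). Chance alone separates a gene in either direction with a probability of 0.0286, the smallest p of the exact permutation test. The shares of both directions together did not exceed that. Nor, in this fit, did 343 of 8858 genes exceed the share of 0.05 that chance gives at an unadjusted p under 0.05. That depended on the fit. The share of genes at such a p was above 0.05 with the library-set term and in the larger set alone. It was also above 0.05 with the replicate number in the fit and with library quality weights, and below it after rescaling. Genes named below only for lack of overlap or for such a p are described as measured, and may differ by chance. The size of the surplus on the PAM3CSK4 side depended on the fit. With the library-set term the unadjusted counts were 506 and 332, and in the larger set alone 670 and 256. Once the libraries were rescaled by median ratios they were 216 and 213 and the counts without overlap 129 and 97, and the median difference over all genes shifted by −0.1 on the log2 scale, from 0.1 to 0.00.

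The intervals bound how large a difference could have gone unseen. The median half-width of a gene's 95% interval was 0.53 on the log2 scale, and 77.9% of intervals lay wholly within 1 log2 unit of 0. For those genes a difference of 1 log2 unit lies outside the interval, while smaller differences could be present without passing the test. The unit is that of log2(FPKM + 1), which understates a ratio at low FPKM. For genes of low level a larger ratio can therefore lie within 1 unit. The median half-width was 0.34 with the library-set term.

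**Figure D1:**
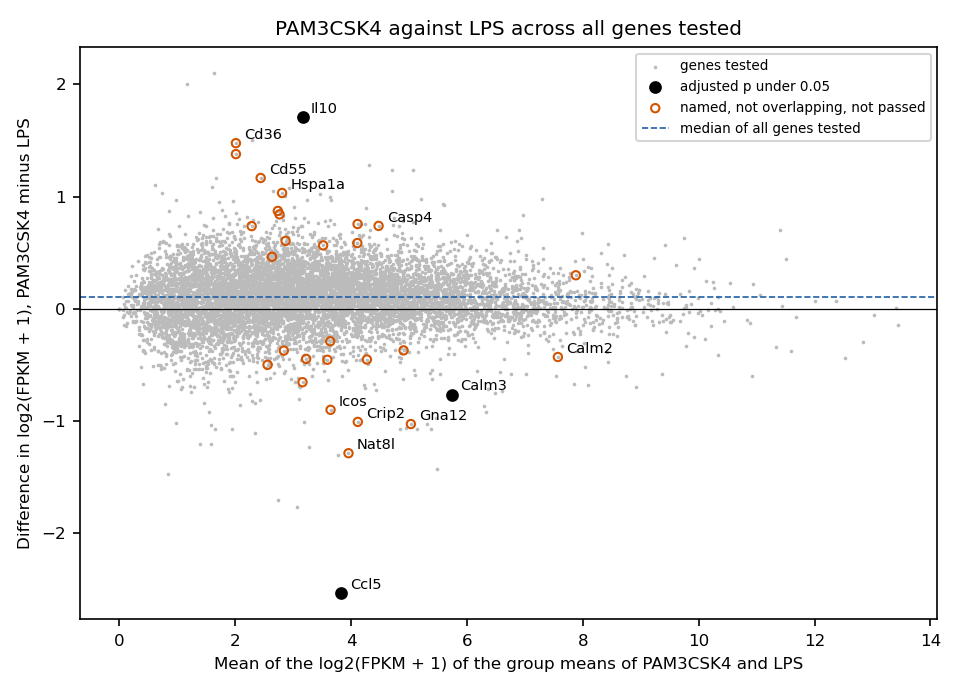
Difference in log2(FPKM + 1), PAM3CSK4 minus LPS, on the vertical axis against the mean level of each gene on the horizontal axis, for the 8858 genes tested (grey points). Black points passed the adjusted test (3 genes), open circles are the other genes named because their libraries did not overlap, and the dashed line is the median of all genes, 0.1.

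Il10 encodes interleukin-10, a cytokine that restrains macrophage activation. It measured 16.2, 17.5, 8.94 and 18.5 FPKM in the PAM3CSK4 libraries and 3.91, 2.51, 4.78 and 4.45 FPKM in the LPS libraries. Every PAM3CSK4 library was above every LPS library. The difference was 1.71 on the log2 scale (95% interval 1.1 to 2.31, adjusted p = 0.0364), with means of 15.3 ± 4.33 and 3.91 ± 1 FPKM (SD, 4 libraries each). Both groups were above PBS, in which Il10 measured 0.307 to 1.17 FPKM: the difference from PBS was 3.36 for PAM3CSK4 (adjusted p = 9.33e-08) and 1.66 for LPS (adjusted p = 0.000209). The zymosan libraries held 6.52 to 13.7 FPKM, which overlaps the PAM3CSK4 range and lies above the LPS range.

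Ccl5 encodes the chemokine CCL5 (RANTES), which attracts T cells and monocytes and is a classical target of the TRIF arm. It measured 40.3, 38.6, 25.5 and 25 FPKM with LPS and 2.31, 3.5, 6.28 and 8.21 FPKM with PAM3CSK4. The lowest LPS library was well above the highest PAM3CSK4 library, and LPS 1 and LPS 2, of the smaller set, were the highest of their group while PAM3CSK4 1 was the lowest of its own. The difference was −2.54 (−3.4 to −1.67, adjusted p = 0.0364), with means of 32.4 ± 8.21 FPKM with LPS and 5.08 ± 2.67 with PAM3CSK4. No other tested gene had a larger difference toward LPS. Against PBS, where Ccl5 measured at most 2.11 FPKM and was listed at 0 in 1 library, the difference was 4.1 for LPS (adjusted p = 5.56e-07) and 1.56 for PAM3CSK4 (adjusted p = 0.00774). With zymosan it measured 2.96 to 6.77 FPKM, within the PAM3CSK4 range. In the larger set alone the difference was −1.97 (adjusted p = 0.283).

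Calm3 is 1 of several genes that encode calmodulin, the calcium sensor protein. It measured 66, 70.3, 63.3 and 75.2 FPKM with LPS and 34.6, 43.1, 43.7 and 38.9 FPKM with PAM3CSK4, without overlap. The difference was −0.77 (−1.04 to −0.49, adjusted p = 0.0364). PBS, at 50.8 to 59.4 FPKM, lay between the groups: the difference from PBS was −0.45 for PAM3CSK4 (adjusted p = 0.0146) and 0.32 for LPS (adjusted p = 0.0675). After rescaling the call of Calm3 against LPS was lost (−0.88, adjusted p = 0.182). Calm2, a second calmodulin gene, had the same order without passing, at 207 to 232 FPKM with LPS and 149 to 174 FPKM with PAM3CSK4 (−0.43, adjusted p = 0.292, and 0.0176 with the library-set term). Reads of such similar genes could have been split by the authors' counting, so both genes are uncertain.

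None of the 3 calls held under every alternative tried. Leaving out each of the 8 libraries in turn kept Il10 in 1 of 8 fits (without PAM3CSK4 3), Ccl5 in 1 (without PAM3CSK4 4) and Calm3 in 0. The largest adjusted p in those fits was 0.228 for Il10 and for Ccl5 and 0.232 for Calm3, and the differences ranged from 1.55 to 1.93, from −2.77 to −2.28 and from −0.81 to −0.7. With the library-set term, where 11 genes passed (0.124%), all 3 were called, at adjusted p-values of 0.0119, 0.00864 and 0.00864. The exact permutation test of 4 against 4 libraries gave each an unadjusted p of 0.0286, the smallest that 70 splits can give. Every gene without overlap gets that p, so the test adds nothing to the lack of overlap.

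**Figure D2:**
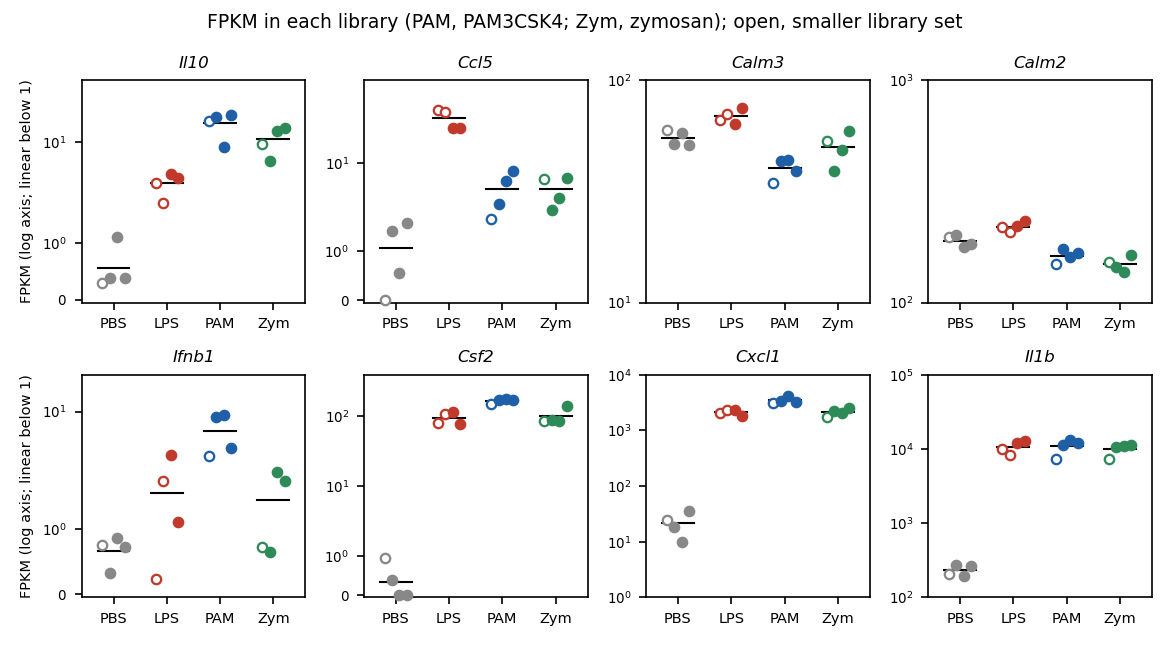
FPKM of 8 genes (vertical axes, logarithmic, linear near 0 where values reach below 1) in each library of PBS, LPS, PAM3CSK4 (PAM) and zymosan (Zym), ordered by replicate number. Open circles are libraries of the smaller set and bars are group means; Il10 and Ccl5 separate LPS from PAM3CSK4 in opposite directions, and Il1b overlaps.

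Besides Il10, 14 further genes stood higher in every PAM3CSK4 library at a mean of at least 5 FPKM and were taken by smallest unadjusted p, and none passed the adjusted test. Hspa1a, encoding the inducible heat shock protein HSP70, measured 8.1, 13, 6.01 and 9.31 FPKM with PAM3CSK4 and 3.23, 4.57, 2.98 and 4.63 with LPS. Both were above PBS, where Hspa1a measured at most 0.524 FPKM. The difference between the agonists was 1.03 (0.55 to 1.51, adjusted p = 0.308).

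Cd36 encodes a scavenger receptor for oxidised lipids that also hands some lipopeptides to TLR2. It measured 3.41, 7.52, 9.43 and 3.34 FPKM with PAM3CSK4 and 0.943, 1.14, 2.02 and 1.27 with LPS, and the groups did not overlap. The difference was 1.48 (0.74 to 2.21, adjusted p = 0.553), and PBS, at 1.22 to 3.66 FPKM, overlapped both. RGD1565355, which RefSeq lists as Cd36l1, measured 4.02 to 8.81 FPKM with PAM3CSK4 and 0.89 to 2.44 with LPS (1.38, adjusted p = 0.988). It may share reads with Cd36, so the values of both are uncertain.

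Cd55 encodes decay-accelerating factor, which protects a cell from complement. It measured 4.07, 8.65, 7.25 and 8.36 FPKM with PAM3CSK4 and 2.42, 1.21, 3.25 and 3.65 with LPS (1.17, 0.47 to 1.86, adjusted p = 0.988). Casp4, encoding an inflammatory caspase that binds intracellular LPS, measured 22.2 to 37.7 FPKM with PAM3CSK4 and 14.8 to 17.7 with LPS (0.74, adjusted p = 0.988). Its PAM3CSK4 libraries overlapped PBS (23.3 to 41.3 FPKM), and LPS lay below PBS by −0.95 (adjusted p = 0.00131). Phgdh, the first enzyme of serine synthesis, fell with both agonists, from 65.7 to 71 FPKM in PBS to 14.9 to 27.8 with PAM3CSK4 and 9.89 to 14 with LPS (0.75 between the agonists, adjusted p = 0.988). Atp6v0d2, a subunit of the vacuolar proton pump, differed by 0.87 and Ppp3cc, a catalytic subunit of calcineurin, by 0.84. Ciart, a circadian repressor, differed by 0.74, and Npm1, a nucleolar protein at 237 to 299 FPKM with PAM3CSK4 and 202 to 225 with LPS, by 0.3. The differences of Acy1, LOC499339, Nradd and Nup153 were 0.58, 0.56, 0.6 and 0.46.

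On the LPS side 13 further genes joined Ccl5 and Calm3 by the same rule, again without passing. Crip2, a LIM domain protein, measured 27.3, 24.5, 20.2 and 22.4 FPKM with LPS and 13, 11.6, 10.8 and 9.39 with PAM3CSK4, so that the groups were far apart. Its difference was −1.01 (−1.45 to −0.57, adjusted p = 0.24), and with the library-set term it passed (−0.91, adjusted p = 0.00864). Icos, best known as a costimulatory receptor of T cells, measured 13.6, 13, 20.5 and 17.2 FPKM with LPS and 6.33, 7.58, 11 and 7.74 with PAM3CSK4 (−0.9, adjusted p = 0.988). Markers of T, NK and B cells summed to at most 0.874 FPKM in any of these libraries, with Cd3e and Cd3g at 0.

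Nat8l, which makes N-acetylaspartate, measured 19.5 to 25.4 FPKM with LPS and 18.7, 5.05, 9.25 and 5.14 with PAM3CSK4 (−1.29, adjusted p = 0.988). Its highest PAM3CSK4 value was in PAM3CSK4 1, of the smaller set, and without that set the difference was −1.75. Gna12, a G protein alpha subunit, had a like order, at 35.9 to 59 FPKM with LPS and 34.7, 14.1, 24.6 and 16.1 with PAM3CSK4 (−1.03, adjusted p = 0.988). Besides Calm2, the other 8 were Mex3c (−0.66), Prkar2b (−0.5), Pmvk (−0.46), Rab13 (−0.45), Mblac1 (−0.45), Top1 (−0.37), Erp29 (−0.37) and Scp2 (−0.29).

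Apart from Cd36, described above, the receptors and adaptors of both pathways overlapped between the groups. Tlr4 measured 1.18, 5.59, 9.93 and 8.2 FPKM with PAM3CSK4 and 2.66, 2.35, 6.94 and 7.51 with LPS. Tlr2 measured 61.8, 154, 182 and 178 FPKM with PAM3CSK4 and 94, 84.6, 176 and 214 with LPS. In both genes the low values were those of LPS 1, LPS 2 and PAM3CSK4 1, the libraries of the smaller set. The differences were 0.2 (−0.87 to 1.27) for Tlr4 and 0.01 (−0.81 to 0.83) for Tlr2, and both signs turned with the library-set term (−0.15 and −0.27), that of Tlr2 also after rescaling (−0.11). Cd14, which carries LPS to TLR4, measured 460 to 884 FPKM with PAM3CSK4 and 640 to 1083 with LPS (−0.11, −0.61 to 0.38). Tlr1 and Tlr6, the partners of TLR2, differed by 0.25 and 0.51, and by −0.05 and 0.23 with the library-set term. Myd88 differed by 0.37, and by 0.19 with that term.

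Ly96, encoding MD-2, stayed under the filter. It was listed at 0 in 3 of the 4 LPS libraries, in 1 of the 4 PAM3CSK4 libraries and in all 4 PBS libraries, and was at most 0.535 FPKM elsewhere in these groups. Ticam2, encoding TRAM, measured 2.44 to 7 FPKM with PAM3CSK4 and 1.52 to 4.96 with LPS (0.45). Irf3 measured 12.1 to 17.4 and 7.32 to 12.4 FPKM (0.36, adjusted p = 0.988). Ticam1, encoding TRIF, was not analysed here.

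By list, the 8 tested genes of the TLR4 complex and TRIF arm had a median difference of 0.24, the 5 of the TLR2 complex 0.25 and the 11 shared adaptors and kinases 0.18, against 0.1 over all genes tested. These medians were −0.02, −0.05 and −0.06, with the library-set term, all of the opposite sign, against 0.02 over all genes. None was called. Clec7a, encoding dectin-1, the receptor for fungal beta-glucan, was the 1 member of these lists with an unadjusted p under 0.05 and LPS higher, at 2.2 to 4.73 FPKM with LPS and 1.67 to 2.51 with PAM3CSK4 (−0.55, adjusted p = 0.988). At that threshold 1 member of the TLR4 list and 1 of the TLR2 list, Cd36, lay higher with PAM3CSK4.

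The main inflammatory cytokines overlapped between the agonists. Il1b, encoding the precursor of interleukin-1 beta, measured 7306 to 13101 FPKM with PAM3CSK4 and 8268 to 12712 with LPS, against 193 to 271 in PBS. The difference was 0.01 (−0.43 to 0.45), and its sign turned after rescaling (−0.11) and with the library-set term (−0.11). Tnf, encoding tumour necrosis factor, measured 96.2 to 148 FPKM with PAM3CSK4 and 80.8 to 148 with LPS (0.17, −0.34 to 0.68). Il6 measured 558, 654, 797 and 805 FPKM with PAM3CSK4 and 551, 396, 560 and 544 with LPS, and only the lowest PAM3CSK4 library reached the LPS range (0.45, −0.12 to 1.02). Csf3, the granulocyte growth factor G-CSF, differed by −0.15 (−0.8 to 0.5) and Il1rn, the interleukin-1 receptor antagonist, by 0.00 (−0.49 to 0.5), which turned to −0.11 after rescaling. These intervals bound the differences and do not show equal levels. Il12b stayed under the filter.

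Csf2 and Cxcl1 separated the groups without passing the adjusted test. Csf2, encoding the myeloid growth factor GM-CSF, measured 147, 171, 176 and 168 FPKM with PAM3CSK4 and 79.3, 105, 113 and 77.2 with LPS, and at most 0.948 in PBS. Every PAM3CSK4 library was above every LPS library (0.83, 0.26 to 1.4, adjusted p = 0.988). Cxcl1, a chemokine for neutrophils, had the same order at 3106 to 4116 FPKM with PAM3CSK4 and 1798 to 2337 with LPS (0.7, 0.12 to 1.28, adjusted p = 0.988). Its relative Cxcl2 overlapped (0.48, −0.46 to 1.41). Ccl2, which draws monocytes, lay the other way without overlap, at 6041 to 7901 FPKM with LPS and 4286 to 5867 with PAM3CSK4 (−0.44, −0.93 to 0.04). Ltb, encoding lymphotoxin beta, was also higher in every LPS library, at 6.98 to 10.9 FPKM against 4.46 to 6.86 (−0.65, adjusted p = 0.988), and was named after its values were seen.

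Of the 34 tested cytokines 1 was called, Il10, and the list's median difference was 0.15 as deposited and 0.03 after rescaling, against 0.1 and 0.00 over all genes. Against PBS 18 of them were called higher with PAM3CSK4, as were 5.62% of all genes, and 13 with LPS, as were 5.02% of all genes. The difference between these counts was not tested. None of the 16 chemokines on their own list was called (median −0.13, and −0.22 after rescaling), since Ccl5 was counted with the interferon response. Of the 30 receptors for cytokines and chemokines none was called, and 26 had a positive difference (21 after rescaling). Over all genes with any difference 67.5% were positive as deposited and 50.4% after rescaling. Il7r measured 107 to 161 FPKM with PAM3CSK4 and 64.1 to 109 with LPS (0.6), and Ccrl2, which binds chemerin, 74.6 to 114 and 60.8 to 67.6 without overlap (0.43). Il1r2, the decoy receptor for interleukin-1, measured 1.92 to 4.91 and 0.489 to 3.13 FPKM (0.81).

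**Figure D3:**
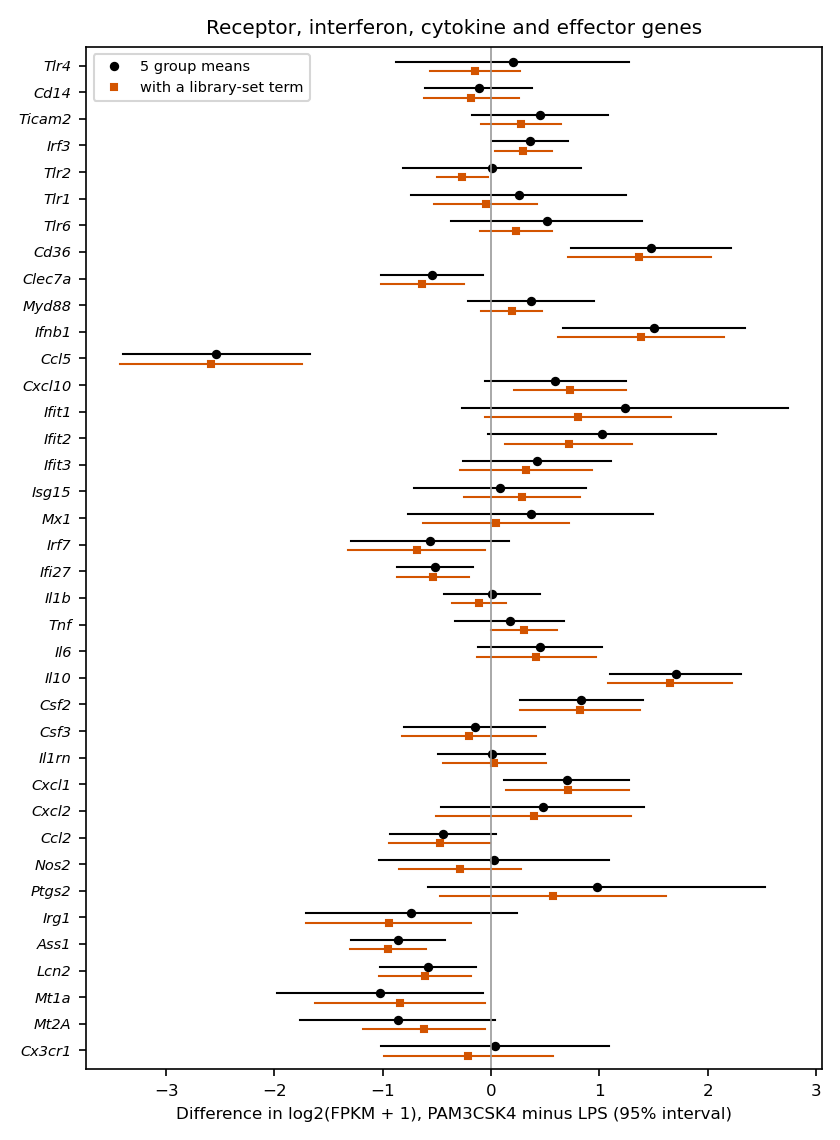
Difference in log2(FPKM + 1), PAM3CSK4 minus LPS, with 95% intervals on the horizontal axis for genes of sensing, interferon response, cytokine and effector function. Black circles are the fit of group means and orange squares the fit with a library-set term; the intervals of Il10 and Ccl5 lie clear of 0 in both, and those of Il1b, Nos2 and Csf3 include 0 in both.

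In the interferon branch Ccl5 was higher with LPS, while Ifnb1 lay higher with PAM3CSK4 without passing. Ifnb1, encoding interferon beta, measured 4.19, 9.06, 9.38 and 4.88 FPKM with PAM3CSK4 and 0.229, 2.54, 4.26 and 1.15 with LPS. The lowest PAM3CSK4 library was just under the highest LPS library, and the other 3 were above all LPS libraries. The difference was 1.5 (0.67 to 2.34, adjusted p = 0.988), and 1.39 with the library-set term (adjusted p = 0.253). Against PBS, at 0.321 to 0.863 FPKM, it was 2.19 for PAM3CSK4 (adjusted p = 0.000384) and 0.68 for LPS (adjusted p = 0.201). At such low FPKM the log2(FPKM + 1) scale understates a ratio.

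Upstream sequences of 3 genes of these branches, chosen after their values were seen, are shown 5′ to 3′ from RefSeq (GRCr8), ending just before the gene's start. Ifnb1 is shown because interferon beta is the usual target of the TRIF arm; its 120 bases (chr5:108067488-108067607, minus strand) hold 1 NF-kB site, in capitals. Ifi27 is an interferon-stimulated gene with LPS higher; its 180 bases (chr6:128355132-128355311, plus strand) hold 2 matches to the interferon-stimulated response element, in capitals and both read on the opposite strand. Cxcl1 had PAM3CSK4 higher; in its 120 bases (chr14:17479322-17479441, minus strand) capitals mark 2 overlapping NF-kB matches on opposite strands.
Ifnb1: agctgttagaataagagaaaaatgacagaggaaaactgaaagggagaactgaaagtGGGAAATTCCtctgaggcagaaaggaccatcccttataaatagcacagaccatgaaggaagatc
Ifi27: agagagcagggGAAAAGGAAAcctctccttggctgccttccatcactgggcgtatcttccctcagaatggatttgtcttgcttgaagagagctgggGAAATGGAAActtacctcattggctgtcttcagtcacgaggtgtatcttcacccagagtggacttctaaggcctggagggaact
Cxcl1: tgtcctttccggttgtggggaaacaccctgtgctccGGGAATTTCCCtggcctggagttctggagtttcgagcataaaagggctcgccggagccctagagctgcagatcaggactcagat
Both strands were searched. No separate motif for IRF3 was searched, so unmarked letters do not show that such sites are absent. Of 33465 promoters of 250 bases in the RefSeq table, 6.33% hold the NF-kB site and 3.41% the response element. A match describes letters only. The promoters of Ccl5, Il10 and Calm3 are not shown.

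Interferon-stimulated genes lay in both directions. Ifit1 and Ifit2, which bind viral RNA or its products, measured 11.6 to 58 and 4.71 to 19.6 FPKM with PAM3CSK4 and 3.01 to 35.2 and 2.1 to 13 with LPS, with the lowest value of each in LPS 2. Their differences were 1.24 (−0.27 to 2.74) and 1.02 (−0.03 to 2.07), and that of Ifit3 was 0.43. Cxcl10, a chemokine induced by interferon, measured 44.7 to 90.1 FPKM with PAM3CSK4 and 27.5 to 61.4 with LPS (0.59, −0.06 to 1.25). Mx1 differed by 0.36 (0.05 with the library-set term) and Isg15 by 0.08, whose sign turned after rescaling (−0.04). Irf7, which amplifies the response, lay the other way (−0.56, −1.29 to 0.17). None of these passed.

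Of the 55 tested genes of the interferon list 1 was called, Ccl5, and the median difference was 0.17, and 0.05 after rescaling, against 0.1 and 0.00 over all genes. At an unadjusted p under 0.05 the list had 4 members on each side. Over all genes the shares were 2.65% with PAM3CSK4 higher and 1.22% with LPS higher. Some of the list's members were named after their values were seen. Besides Ifnb1, Socs1, a brake on cytokine receptors, Gbp5, a guanylate-binding protein, and Cmpk2, a mitochondrial kinase, lay higher with PAM3CSK4, by 0.61, 0.81 and 0.9. Besides Ccl5, Ifi27, Ifitm2 and Bst2, the last a tether of budding virus, lay higher with LPS (−0.52, −0.75 and −0.6). Ifi27 measured 329, 358, 267 and 295 FPKM with LPS and 193, 189, 216 and 277 with PAM3CSK4, so that 1 PAM3CSK4 library reached into the LPS range.

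Factors that read out or damp the signal held no called gene. Of 25 NF-kB factors and feedback genes Nfkbib, encoding an NF-kB inhibitor, had the smallest p, at 55.1 to 64.4 FPKM with PAM3CSK4 and 47.5 to 58.1 with LPS (0.26, adjusted p = 0.988). The list's median was 0.23, and 0.12 after rescaling, and with the library-set term it was −0.02, with 11 members positive instead of 18. Among 31 immediate early and MAP kinase feedback genes 4 were higher in every PAM3CSK4 library, Cebpd (0.32), Ier2 (0.32), Klf6 and Zfp36, against 1.49% of all genes. Hes1, a Notch target, differed by 0.58, and Btg2, an antiproliferative gene, lay the other way, at 26.6 to 37.1 FPKM with LPS and 23.3 to 31.2 with PAM3CSK4 (−0.36). None of the 17 JAK-STAT genes reached an unadjusted p under 0.05.

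Nos2, Ptgs2 and Irg1, enzymes of nitric oxide, prostaglandin and itaconate synthesis, rose over PBS with both agonists and overlapped between them. Nos2, the inducible nitric oxide synthase, measured 127, 371, 456 and 517 FPKM with PAM3CSK4 and 204, 169, 476 and 631 with LPS, against at most 1.66 in PBS. The difference was 0.03 (−1.03 to 1.09), and its sign turned after rescaling (−0.09) and with the library-set term (−0.29). Ptgs2, cyclooxygenase-2, measured 30.1, 175, 272 and 352 FPKM with PAM3CSK4 and 43.8, 18.1, 187 and 217 with LPS (0.98, −0.58 to 2.53, and 0.57 with the library-set term). In both genes the 3 libraries of the smaller set held the lowest values. Irg1 (Acod1), which makes itaconate, measured 36.2 to 108 FPKM with PAM3CSK4 and 58.6 to 177 with LPS (−0.73, −1.71 to 0.24).

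Ass1, argininosuccinate synthase, rebuilds arginine, the substrate of nitric oxide synthase. It measured 3.84, 3.65, 4.68 and 6.44 FPKM with LPS and 1.09, 2.04, 2.5 and 2.93 with PAM3CSK4, without overlap, and at most 0.535 in PBS. The difference was −0.86 (−1.3 to −0.43, adjusted p = 0.561). It passed after rescaling (−0.98) and with the library-set term (−0.95, adjusted p = 0.0176). Ptges, the terminal synthase of prostaglandin E, differed by −0.7 and Alox5, which starts leukotriene synthesis, by 0.75. None of the 23 members of the list was called, and its median was −0.03, and −0.15 after rescaling.

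The metallothioneins, small proteins that bind zinc and copper, had higher means with LPS without passing. Mt1a measured 74.4, 64.7, 34.3 and 46.5 FPKM with LPS and 43.1, 16.7, 20.6 and 27.7 with PAM3CSK4. Mt2A measured 154, 105, 72 and 67.2 FPKM with LPS and 123, 37.3, 33.8 and 44 with PAM3CSK4. In each gene PAM3CSK4 1, of the smaller set, was the highest of its group and reached into the LPS range, and LPS 1 and LPS 2 were the highest of theirs. The differences were −1.02 (−1.97 to −0.07, adjusted p = 0.988) and −0.86 (−1.77 to 0.04, adjusted p = 0.988), and −0.84 and −0.62 with the library-set term. Both genes rose over PBS, Mt2A by 5.73 with LPS (adjusted p = 1.53e-08) and by 4.87 with PAM3CSK4 (adjusted p = 1.21e-07).

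The sequences before the starts of both genes are shown because the genes were highest in the same libraries of each group and carry clustered metal response elements. Capitals mark the core letters TGCACNC or TGCGCNC on either strand, in 200 bases before the start of Mt1, the RefSeq symbol with Mt1a as a synonym (chr19:10832976-10833175, minus strand), and in 230 bases before the start of Mt2A (chr19:10838709-10838938, minus strand), both in GRCr8 and 5′ to 3′.
Mt1: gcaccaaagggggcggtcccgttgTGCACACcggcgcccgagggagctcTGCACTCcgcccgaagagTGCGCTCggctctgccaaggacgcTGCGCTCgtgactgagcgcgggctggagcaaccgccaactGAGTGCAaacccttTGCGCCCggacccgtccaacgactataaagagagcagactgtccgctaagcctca
Mt2A: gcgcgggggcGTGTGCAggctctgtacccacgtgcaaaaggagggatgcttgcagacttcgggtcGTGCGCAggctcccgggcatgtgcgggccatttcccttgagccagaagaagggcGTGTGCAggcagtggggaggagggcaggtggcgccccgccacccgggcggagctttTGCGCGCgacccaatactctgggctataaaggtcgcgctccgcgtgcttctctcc
The Mt1 window holds 6 matches and the Mt2A window 4, split evenly between the cores. Of the 33465 promoters 20.6% hold at least 1 match to either core within 250 bases, and 0.266% hold 4 or more. Mt1a was the 1 member of the metallothionein and zinc list with an unadjusted p under 0.05, and the list's median over 19 genes was 0.15, and −0.1 with the library-set term. Lcn2, lipocalin-2, an iron-sequestering acute phase protein, measured 431 to 608 FPKM with PAM3CSK4 and 595 to 1036 with LPS (−0.58, −1.03 to −0.14, adjusted p = 0.988), against at most 4.38 in PBS.

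Glycolysis genes lay mostly higher with LPS, and no member of their list was called. Slc16a3, the lactate exporter MCT4, measured 90.8, 69.8, 136 and 129 FPKM with LPS and 24.6, 56.9, 82.6 and 71 with PAM3CSK4. Within each set of libraries LPS was the higher: LPS 1 and LPS 2 lay above PAM3CSK4 1, and LPS 3 and LPS 4 above the other PAM3CSK4 libraries. The difference was −0.92 (−1.61 to −0.24, adjusted p = 0.988), and −1.1 with the library-set term (adjusted p = 0.0379). Tpi1, triosephosphate isomerase, gave −0.6 (adjusted p = 0.988) and −0.71 with that term (adjusted p = 0.0435). Ldha, lactate dehydrogenase, measured 715 to 1219 FPKM with LPS and 655 to 867 with PAM3CSK4 (−0.33), and Gapdh 968 to 1356 and 881 to 1058 (−0.27). Aldoc, an aldolase at low level, differed by −0.72. Hif1a, the oxygen-regulated factor that drives many of these genes, lay the other way (0.53, 0.01 to 1.04).

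Over the 29 tested genes of the glycolysis and hypoxia list 20 had a negative difference, and 23 after rescaling, with medians of −0.1 and −0.22 against 0.1 and 0.00 over all genes. At an unadjusted p under 0.05 there were 5 members with LPS higher and 1 with PAM3CSK4 higher, against 1.22% and 2.65% of all genes. With the library-set term and the replicate number both in the fit, an alternative added after seeing the data, 6 members were called, all higher with LPS, as were 18 of all 8858 genes (0.203%) in that fit: Slc16a3, Tpi1, Gapdh, Ldha, Gpi and Pgam1. With the library-set term alone Slc16a3 and Tpi1 were called, and with the replicate number alone none. With library quality weights Aldoc and Ldha were called, both higher with LPS, as were 20 of all 8858 genes in that fit. In the fit of group means the differences of Gpi and Pgam1 were −0.32 and −0.25. Gpi, Pgam1, Ldha and Hif1a were named after their values were seen.

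**Figure D4:**
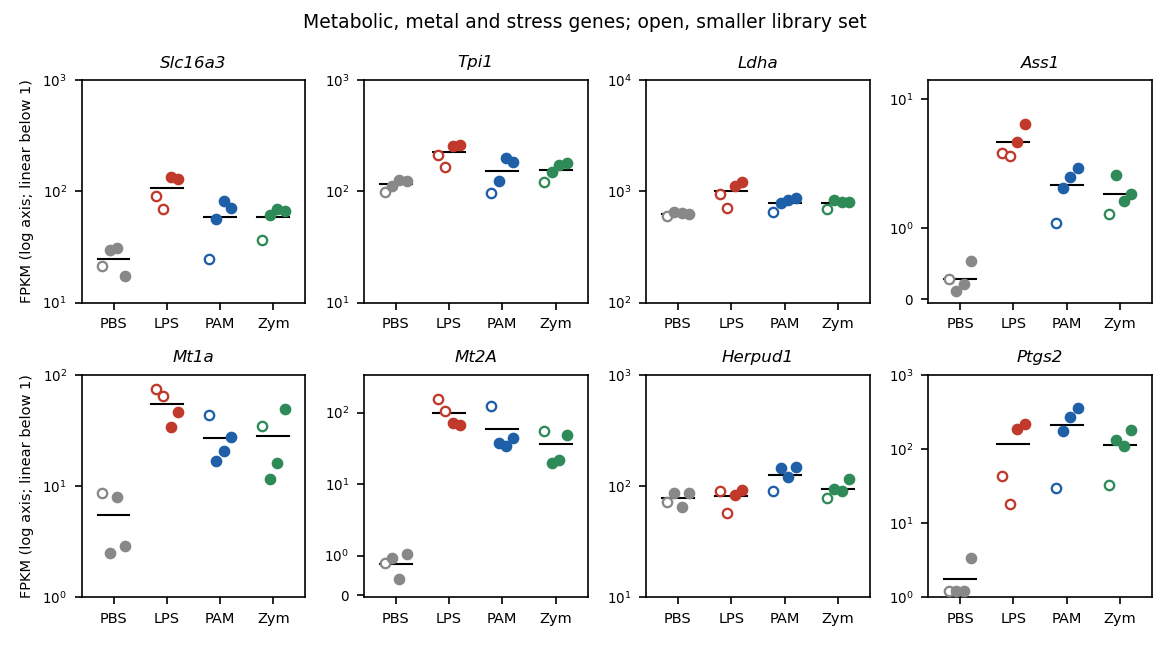
FPKM of 8 genes (vertical axes, logarithmic, linear near 0 where values reach below 1) in each library, ordered by replicate number, with the smaller library set as open circles and bars at group means. Ptgs2 is low and Mt2A high in the open circles of LPS and PAM3CSK4, and among the filled circles Slc16a3, Tpi1, Ldha and Ass1 are higher with LPS.

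The unfolded protein response raises chaperones and degradation factors when proteins misfold in the endoplasmic reticulum. None of the 21 tested members of its list was called. All of them had a positive difference as deposited, from 0.12 to 0.64, and also after rescaling and in the larger set alone. With the library-set term 20 did. The median was 0.39, and 0.27 after rescaling, against 0.1 and 0.00 over all genes. Of all 8858 genes 5973 were positive as deposited, 4464 after rescaling, 5622 in the larger set alone and 4801 with the library-set term. Herpud1, which serves degradation of misfolded proteins, measured 91.1, 144, 120 and 149 FPKM with PAM3CSK4 and 90.6, 57.3, 83.8 and 91.3 with LPS (0.64, 0.2 to 1.07, adjusted p = 0.988). Dnajb9, an endoplasmic reticulum cochaperone, did not overlap, at 66.6 to 77.7 FPKM with PAM3CSK4 and 39.2 to 61.7 with LPS (0.55). Atf4, the factor that drives the amino acid response, differed by 0.3 and its target Asns, asparagine synthetase, by 0.56. Against PBS 6 of the list were called higher with PAM3CSK4 and 1 with LPS, against 5.62% and 5.02% of all genes, and the difference of these counts was not tested.

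**Figure D5:**
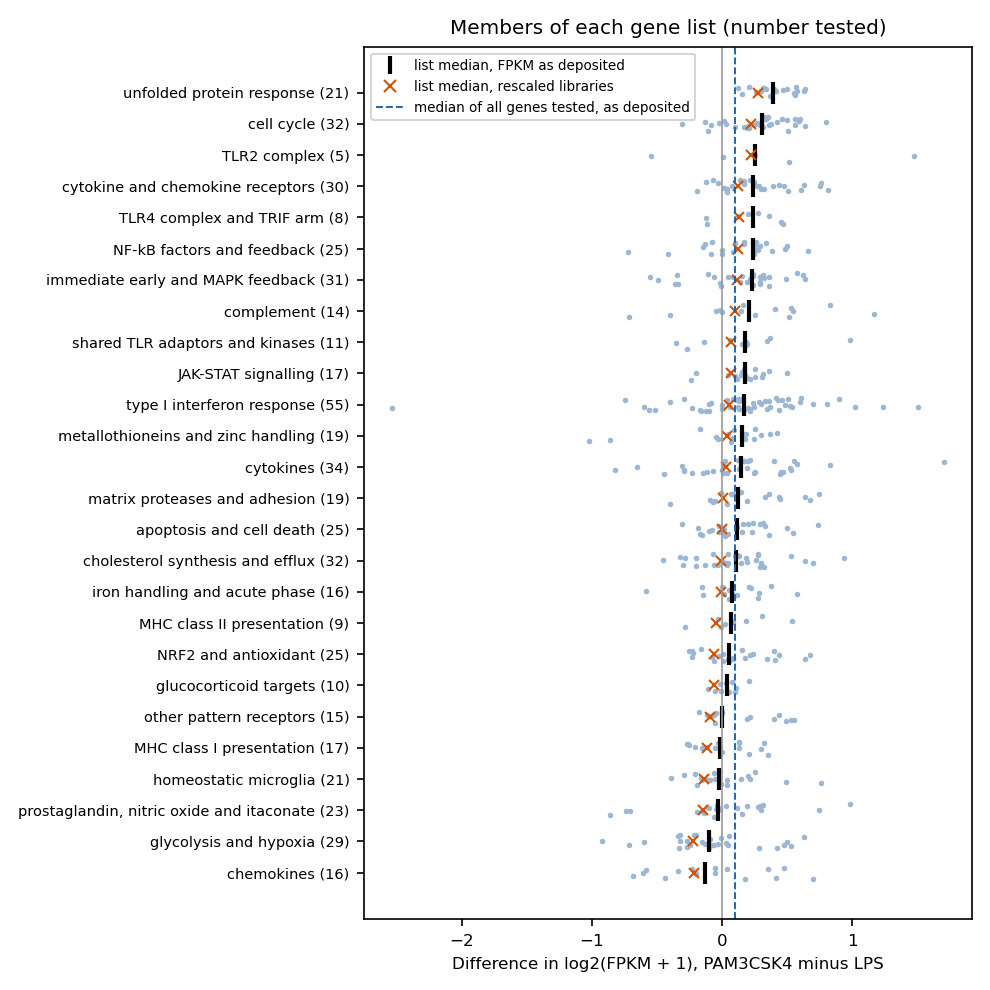
Difference in log2(FPKM + 1), PAM3CSK4 minus LPS, on the horizontal axis for each tested member (points) of 26 gene lists, with the list medians as deposited and after rescaling. The dashed line is the median of all genes, 0.1; the median of the unfolded protein response lies at 0.39 and that of the chemokines at −0.13.

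Cell cycle genes fell with both agonists: 31 of 32 tested were called lower than PBS with PAM3CSK4 and 31 with LPS, as were 22.6% and 27.3% of all genes. Between the agonists none was called, 27 had a positive difference (24 after rescaling) and the median was 0.31, and 0.22 after rescaling. Over all genes with any difference 67.5% were positive as deposited and 50.4% after rescaling. The medians over all genes were 0.1 and 0.00. Rrm2, a ribonucleotide reductase subunit, measured 10.6 to 19.2 FPKM with PAM3CSK4, 4.28 to 12.4 with LPS and 85.5 to 122 with PBS (0.79 between the agonists, adjusted p = 0.988). Ccnd2, cyclin D2, differed by 0.63 and Ccnb2, cyclin B2, by 0.59.

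Of 14 tested complement genes 3 were higher in every PAM3CSK4 library and 1 in every LPS library, and none was called. Over all genes these shares were 1.49% and 0.531%. Cfp, properdin, which stabilises the convertase of the alternative pathway, measured 2.46, 2.24, 1.91 and 1.42 FPKM with PAM3CSK4 and 0.687, 0.545, 1.14 and 0.432 with LPS, both below PBS (5.83 to 10.9). The groups did not overlap (0.83, 0.39 to 1.27, adjusted p = 0.813). Serping1, the C1 inhibitor, lay the other way, at 2.7 to 5.72 FPKM with LPS and 1.26 to 2.37 with PAM3CSK4 (−0.71, adjusted p = 0.988). Among 19 matrix and adhesion genes only Mmp10, stromelysin-2, was higher in every PAM3CSK4 library, at 24.9 to 37.3 FPKM against 16.3 to 21.7 (0.74). Mmp12, macrophage elastase, differed by 0.67 with overlap. Sqstm1, the autophagy receptor p62, was the 1 member of the NRF2 and antioxidant list with an unadjusted p under 0.05, at 701 to 1333 FPKM with PAM3CSK4 and 484 to 800 with LPS (0.63, adjusted p = 0.988).

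The lists of homeostatic microglia and antigen presentation genes held no member with an unadjusted p under 0.05, and the 14 microglia and macrophage markers held 1, Cd68, with LPS higher. The 21 tested homeostatic microglia genes had a median difference of −0.02, and 15 of them were called lower than PBS with each agonist, against 22.6% of all genes for PAM3CSK4 and 27.3% for LPS. Cx3cr1, the fractalkine receptor, measured 0, 3.09, 2.24 and 5.22 FPKM with PAM3CSK4 and 0.383, 4.1, 1.36 and 3.49 with LPS, against 39.3 to 96.1 in PBS. The difference between the agonists was 0.04 (−1.02 to 1.09), −0.11 after rescaling and −0.21 with the library-set term. The 9 tested MHC class II and 17 MHC class I presentation genes had medians of 0.07 and −0.02.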

How the data were processed

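RNA was extracted on RNeasy Micro columns and made into libraries with Smart-Seq2 and Nextera XT, per the labels' protocols. The authors deposited FPKM values in 1 table, without counts, and no total per library is known. HISAT2 2.0.5.1, Cufflinks 2.2.1, featureCounts 1.4.6, DESeq2 and rn6 are named in the submitters' processing notes, without their roles, and no annotation is named there. Symbols were matched to RefSeq GRCr8 for spelling, 14814 directly and 2084 through a synonym, and 412 found no match.

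Groups came from the labels. Log2(FPKM + 1) of all 20 libraries was fitted with 5 group means in limma 3.58.1 (R 4.3.3) with a mean-variance trend, and p-values of PAM3CSK4 minus LPS were adjusted over 8858 genes. The script was tested on simulated data. Named genes were, in each direction, called genes without overlap and with a mean of at least 5 FPKM, filled to 15 by smallest p; called members of each list or up to 4 of smallest p; and a set of receptor, interferon and cytokine genes. Some genes that this rule names are not reported here. Members and lists were chosen with earlier results of these data known. Alternatives were other pseudocounts, filters and scalings, fewer libraries, weights, a replicate block, a library-set term, zeros as missing and an exact permutation test. The set term with the replicate block was added after seeing the data. Python 3.11.15 with pandas 2.3.3 and matplotlib 3.10.9 made the tables and plots.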

Additional observations from a re-analysis of the deposited data

Results flagged for a closer look

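Of 202 groups of 4 libraries looked at for the named genes, 9 held a library far from the other 3 (Dixon's test), and chance alone gives about 1 in 20. In PAM3CSK4 1, of the smaller library set, Nradd measured 5.57 FPKM against 8.81 to 8.97 in the other PAM3CSK4 libraries, Erp29 15.4 against 28.4 to 30.2, Atf4 331 against 399 to 409 and Mt2A 123 against 33.8 to 44. In PAM3CSK4 2 Btg2 measured 31.2 FPKM against 23.3 to 24.6. In LPS 2 Il6 measured 396 FPKM against 544 to 560 in the other LPS libraries, and in LPS 3 Gbp5 measured 25.4 against 15.8 to 17. In LPS 4 Cd14 measured 1083 FPKM against 640 to 651 and Atp6v0d2 2.2 against 4.32 to 4.74.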

How the results depend on the processing

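The count of 3 called genes moved with the processing, and the cause was not tested. It was 0 with a pseudocount of 0.1 FPKM, 0 with no filter on low values and 0 with only the 8 libraries in the fit (378, 524 and 207 genes at an unadjusted limma p under 0.05), 11 with the library-set term, 37 with library quality weights, 1 in the larger library set alone (Glul), and 0 to 2 with 1 library left out, where each of the 8 libraries lowered it. With the replicate block it was 7, where Hspa1a, Cd36, RGD1565355 and Crip2 joined the 3, and with the library-set term and replicate block 30. Fits with the set term, the block, both or quality weights held more genes at an unadjusted limma p under 0.05 than the main fit. So did the larger set alone. With the library-set term 506 such genes were higher with PAM3CSK4 and 332 with LPS, and in the larger set 670 and 256. Whether the replicate numbers pair the libraries is not given by the labels, and the correlations did not settle it. Of 4 same-numbered pairs 3 had residual correlations over 0.1, from −0.26 to 0.57. With the library-set term 2 of the 4 did, from −0.19 to 0.19. In each case 2 of 4 PAM3CSK4 libraries correlated best with their own number. Spp1 was low in replicate 2 of every group (280 to 415 FPKM against 5848 to 15393 in the other libraries). The replicate 2 libraries thus share a trait that the labels do not name, and what the numbers mark was not tested.

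The calls of Il10, Ccl5 and Calm3 were lost with the small pseudocount (1.92, −2.77 and −0.78), with no filter (1.71, −2.54 and −0.77), with only the 8 libraries (1.71, −2.54 and −0.77) and in the larger set (1.45, −1.97 and −0.71), and that of Calm3 also after rescaling (−0.88). With 1 library left out they ranged from 1.55 to 1.93, −2.77 to −2.28 and −0.81 to −0.70.

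Among 101 named genes 11 changed sign. After rescaling the differences were −0.11 for Tlr2, −0.036 for Isg15, −0.11 for Il1b, −0.11 for Il1rn, −0.092 for Nos2 and −0.11 for Cx3cr1. With quality weights they were 0.091 for Cd14, −0.038 for Tlr2, −0.039 for Tlr1, −0.14 for Il1rn and −0.085 for Nos2. With the library-set term they were −0.15 for Tlr4, −0.27 for Tlr2, −0.051 for Tlr1, −0.11 for Il1b, −0.29 for Nos2 and −0.21 for Cx3cr1. With that term and the replicate block they were −0.096 for Tlr4, −0.28 for Tlr2, −0.18 for Tlr1, −0.11 for Mx1, −0.12 for Il1b, −0.11 for Il1rn and −0.24 for Nos2. In the larger set they were −0.18 for Tlr2, −0.31 for Tlr1, −0.029 for Il1b and −0.30 for Nos2, and Cx3cr1 was −0.35 with the small pseudocount. With 1 library left out the ranges were −0.24 to 0.073 for Cd14, −0.31 to 0.0080 for Csf3, −0.33 to 0.57 for Cx3cr1, −0.11 to 0.19 for Il1b, −0.14 to 0.14 for Il1rn, −0.25 to 0.35 for Isg15, −0.00555 to 0.78 for Mx1, −0.28 to 0.47 for Nos2, −0.21 to 0.64 for Tlr1, −0.20 to 0.37 for Tlr2 and −0.075 to 0.70 for Tlr4. Of 2009 alternative values 1843 kept direction and side of the threshold, with the exact permutation test judged on unadjusted p-values. Only 3 of the 101 genes were called in the main fit, so most of these values count a gene that stayed uncalled. Over the 19 alternatives other than the exact test, Il10 and Ccl5 kept their calls in 8 each and Calm3 in 6. Depth is unknown, so counting error could not be given.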

Other observations

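Spp1, encoding osteopontin, stood apart by replicate number. It measured 280 to 415 FPKM in the replicate 2 libraries of all 5 groups, PAM3CSK4 2 and LPS 2 among them, and 5848 to 15393 FPKM in the other 15 libraries.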
